A study of Mus musculus with 2 samples.

Results

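The 7 genes described here, Sesn1, Ddit4, Tsc22d3, Txnip, Pik3ip1, Btg1 and Btg2, restrain growth or division in lymphocytes, and several are known targets of FOXO factors or of the glucocorticoid receptor. They were taken by symbol from the 32285 genes of the count matrices, and all 7 were found in both. They were picked with their difference between the libraries already known, so that difference is described and not tested. Their levels were compared between regulatory T cells (Tregs) of mouse spleen with and without the high-affinity interleukin-2 receptor chain CD25, encoded by Il2ra, and between the states those cells were in.

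FOXO factors stay in the nucleus when signalling through PI3K and AKT is low, and there they switch on genes that slow growth. Interleukin-2 is known to act on T cells mainly through STAT5, and to a lesser degree in Tregs through PI3K and mTORC1, the kinase complex that couples nutrients and growth factors to protein synthesis. Glucocorticoid hormone raises a partly overlapping set of genes in lymphocytes through its own receptor.

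The study deleted CD25 in Tregs and profiled sorted splenic Tregs by droplet single-cell RNA sequencing with 3' counting of unique molecular identifiers (UMIs). The CD25WT group had the genotype CD25WT/WT-tdTomato+/+-Foxp3eGFPCretERT2+/+ and the CD25KO group CD25FL/FL-tdTomato+/+-Foxp3eGFPCretERT2+/+, so the Foxp3-driven inducible Cre and the reporters were shared by both. Animals of both groups were given tamoxifen at 2 mg/kg by intraperitoneal injection for 5 days, and spleens were taken 10 days after induction. Each group is 1 library made from 2 pooled spleens. No source used here gives the animals' age or sex. Live CD4 cells with both reporters (GFP and tdTomato) were sorted, and a gate on low CD25 was applied in CD25KO alone. With 1 library per group, genotype, that gate, animal and library cannot be told apart, and no difference below has a replicate check. Intervals are 95% and cover counting error only.

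After filtering, 5997 CD25WT and 6849 CD25KO T cells remained, with 34833568 and 35208842 UMIs and medians of 5250 and 4156 UMIs per cell. Il2ra stood at 126 counts per 1000000 UMIs (CPM) in CD25WT and 32.6 CPM in CD25KO; the deleted exons are not given, so remaining 3' counts do not measure the deletion. Foxp3 was present at 34.5 and 21.8 CPM and Cd3e at 664 and 898 CPM. Ribosomal protein genes took 39.5% of UMIs in CD25WT and 31.1% in CD25KO. The libraries shared 107 barcodes, of which 26 passed the filters in both.

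The genes lie on 5 chromosomes of mm10 (GENCODE annotation), 3 of them on chromosome 10. Sesn1 spans chr10:41809935-41908424 on the plus strand, Ddit4 chr10:59949669-59951834 on the minus strand, and Btg1 chr10:96617006-96622809 on the plus strand. Tsc22d3 spans chrX:140539528-140600659 (minus), Txnip chr3:96557957-96561883 (plus), Pik3ip1 chr11:3330401-3342971 (plus) and Btg2 chr1:134075170-134079120 (minus). Exons of Txnip overlap those of Gm15441 on the opposite strand, and exons of Pik3ip1 those of Gm12592. Gm15441 had 113 and 41 UMIs in CD25WT and CD25KO T cells and Gm12592 had 20 and 8, and no source used here says whether counting used strand. The Btg1 pseudogenes Btg1-ps1 and Btg1-ps2 had 0 UMIs in both libraries.

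Because several members are known FOXO targets, their RefSeq promoters (GRCm38.p6, 10 start sites for the 7 genes) were searched on both strands for the FOXO core GTAAACA. Over the 300 bases of each promoter, 250 of them before the start, 3 of 10 held that core (those of Txnip and Btg1 and 1 of Sesn1), against 3.65% of all 32851 promoters in the table. The Sesn1 core lies after the start site and is not printed. The parts before the start are chr3:96557707-96557956 for Txnip and chr10:96616751-96617000 for Btg1, both on the plus strand, and are printed 5′ to 3′ with the core, or its reverse complement, in capitals.
Txnip: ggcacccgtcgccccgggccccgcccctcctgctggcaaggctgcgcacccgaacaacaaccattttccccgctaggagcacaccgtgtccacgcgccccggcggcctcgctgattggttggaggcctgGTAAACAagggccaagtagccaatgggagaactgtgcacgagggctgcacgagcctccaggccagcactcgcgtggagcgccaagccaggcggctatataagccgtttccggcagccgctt
Btg1: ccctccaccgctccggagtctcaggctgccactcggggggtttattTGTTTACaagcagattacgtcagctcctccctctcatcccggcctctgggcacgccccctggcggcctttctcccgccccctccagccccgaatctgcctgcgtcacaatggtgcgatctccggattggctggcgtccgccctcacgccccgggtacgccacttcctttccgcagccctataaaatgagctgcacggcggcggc
The Txnip core begins 121 bases before the start site on the gene's strand, and the Btg1 core 204 bases before it on the opposite strand. The glucocorticoid response element (AGAACA, any 3 bases, TGTTCT) was found in 0 of 10 member promoters over the same 300 bases and in 3 of 32851 promoters overall. At so low a rate none would be looked for in 10 promoters, so nothing is read from its absence. Sequence farther from the start sites was not searched. The E-box CACGTG was found in 0 of 10, against 7.15% of all promoters. A match shows only that the letters are there. Whether the core bears on the levels that follow was not tested.

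Sesn1 and Ddit4 both act against mTORC1. Sesn1 encodes Sestrin1, which holds back mTORC1 through the GATOR complexes, and had 2068 UMIs in CD25WT T cells (59.4 CPM) and 773 in CD25KO (21.9 CPM). It was 2.70-fold lower in CD25KO, with a log2 ratio of -1.44 (interval -1.56 to -1.32). Ddit4 encodes REDD1, which inhibits mTORC1 through the TSC complex, and its level was 228 CPM in the CD25WT library and 107 CPM in CD25KO, for a log2 ratio of -1.10 (-1.16 to -1.04). Tsc22d3 encodes GILZ, the leucine zipper protein that mediates part of the glucocorticoid response. Its level was 250 CPM in the CD25WT library and 95.5 CPM in CD25KO, for a log2 ratio of -1.39 (-1.44 to -1.33). Counting error was small beside each of these differences.

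Txnip encodes the thioredoxin-interacting alpha-arrestin that limits glucose uptake. Its level was 407 CPM in the CD25WT library and 218 CPM in CD25KO, for a log2 ratio of -0.90 (-0.94 to -0.86). Pik3ip1 encodes a transmembrane inhibitor of PI3K and was at 115 and 56.4 CPM, with a log2 ratio of -1.03 (-1.11 to -0.95). Btg1 and Btg2 encode antiproliferative adaptors of the CCR4-NOT deadenylase that help to keep T cells quiescent, and they did not share this pattern. Btg1, the most abundant of the 7, reached 1478 CPM in the CD25WT library and 1763 CPM in CD25KO, for a log2 ratio of 0.25 (0.24 to 0.27). Btg2 was at 198 and 219 CPM, with a log2 ratio of 0.15 (0.10 to 0.19).

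**Figure D1:**
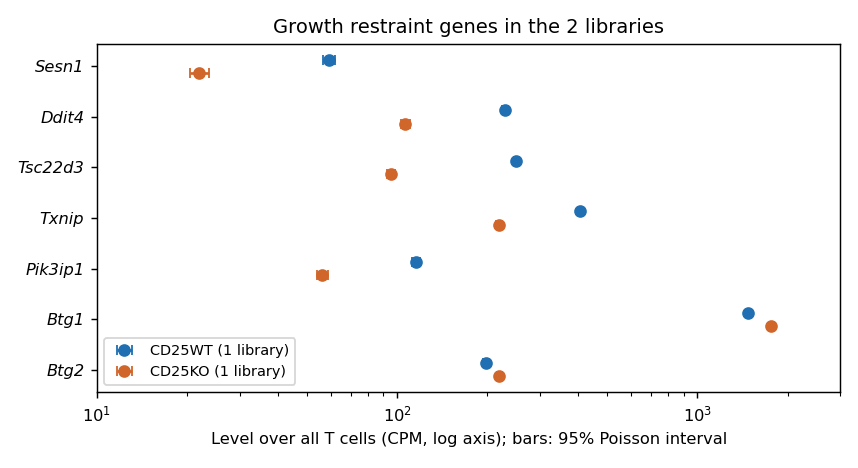
Level of each of the 7 genes over all T cells in CPM on a log axis, 1 point per library, with 95% Poisson intervals that are mostly narrower than the points. Sesn1, Ddit4, Tsc22d3, Txnip and Pik3ip1 sit lower in CD25KO (for Sesn1 21.9 against 59.4 CPM), while Btg1 and Btg2 sit slightly higher.

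So 5 of the 7 genes were at least 1.5-fold lower in CD25KO, against 1.47% of the 7125 genes that averaged 10 CPM or more, and 10.5% of those genes were higher by that fold. At 2-fold, 4 of 7 (Sesn1, Ddit4, Tsc22d3 and Pik3ip1) were lower, against 0.561% of genes. This contrast chose the genes, so nothing is read from these shares. Ranked from the lowest ratio among the 7125 genes, Sesn1 came 17th, Tsc22d3 19th, Ddit4 29th, Pik3ip1 38th and Txnip 53rd. The median log2 ratio of all genes was 0.21, close to the values of Btg1 and Btg2. With TMM factors that median was -0.02, Btg1 stood at 0.02 and Btg2 at -0.09, so the direction of Btg2 depends on scaling and that of Btg1 is small under it. The share of 2-fold calls that were higher was 86.8% with total UMIs and 70.0% with TMM factors.

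The differences in level were also differences in how many cells had a UMI. Each cell was thinned to 2000 UMIs, which left out 59 CD25WT and 349 CD25KO cells. Sesn1 then had a UMI in 11.0% of CD25WT and 4.59% of CD25KO cells (26.0% and 10.0% without thinning). For Ddit4 the shares were 33.9% and 17.7% (60.6% and 32.8% without thinning), and for Tsc22d3 37.4% and 17.7% (63.7% and 31.8%). Txnip had a UMI in 52.5% and 35.9% of cells (78.8% and 57.2% without thinning), and Pik3ip1 in 20.4% and 11.5% (43.3% and 22.6%). All 5 shares were lower in CD25KO at equal depth. Btg2 had a UMI in 32.9% and 34.9% of thinned cells (60.7% and 57.9% without thinning). These genes are expressed in many cell types, so no cell type in the libraries gives a level of free RNA for them.

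Btg1 differed in another way. Its thinned share was 92.1% in both libraries (99.3% and 98.8% without thinning), and its mean was 3.25 UMIs per cell in CD25WT and 4.24 in CD25KO. Cells with at least 10 Btg1 UMIs at that depth made up 1.65% of CD25WT and 6.35% of CD25KO cells, and the ratio of variance to mean was 1.63 and 2.28. The spread of Btg1 among cells was thus wider in CD25KO. Of the 7 genes, a thinned CD25WT cell had 2.80 detected on average and a CD25KO cell 2.14. At least 5 of the 7 were detected in 8.61% and 1.78% of cells. The genes were picked with their difference known, so these counts are descriptions too. UMIs of the 7 together averaged 5.92 and 5.84 per thinned cell, and Btg1 gave the largest part.

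Cells were grouped into states by clustering in which the 7 genes and Il2ra were left out, and named from marker genes. The CD25WT and CD25KO libraries held 2356 and 489 central-like cells (Ccr7, Satb1, Lef1), 888 and 2441 effector-like cells (S100a4, Ccl5, Klrg1 among the leading genes), 404 and 873 recently stimulated-like cells (Egr2, Cd83), and 515 and 560 interferon-response-like cells. There were also 128 and 417 follicular regulatory-like cells and 67 and 217 cycling-like cells. Clusters that met no name are called by their leading genes. The Izumo1r and Cst7 cluster had 559 and 1203 cells, the Ttn and Nrp1 cluster 198 and 583, the Lrrc32 and Myc cluster 767 and 27, and the Gsta4 and Mif cluster 115 and 39. The Lrrc32 and Myc cluster was thus almost wholly CD25WT.

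The fold from the lowest to the highest state was larger, in each library, than the fold between the libraries for all 7 genes. For Ddit4 in CD25WT the margin was small, at 2.35-fold against 2.14-fold, and counting error does not set these apart. Its lowest state there was cycling-like, which had 144 Ddit4 UMIs in 67 cells, against 1.33 per cell over all T cells. Ddit4 was thus low there in CPM but not per cell. Tsc22d3 was highest in central-like cells, with 340 CPM in the CD25WT library and 201 CPM in CD25KO, and lowest in recently stimulated-like cells, at 47.4 and 20.9 CPM. Its highest state was 7.17-fold above its lowest in CD25WT and 9.63-fold in CD25KO. Txnip was also highest in central-like cells (507 and 321 CPM) and lowest in cycling-like cells (94.4 and 71.3 CPM). Both genes had the same highest and lowest states in the 2 libraries, although the second Txnip state in CD25KO, interferon-response-like at 319 CPM, had an interval that overlapped the first.

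Pik3ip1 followed the same order at its ends, with 156 CPM in central-like cells of both libraries and 22.0 and 10.9 CPM in cycling-like cells. Sesn1 was highest in the Ttn and Nrp1 cluster, at 82.2 and 38.3 CPM, with central-like cells next at 75.8 and 36.6 CPM and overlapping intervals. Ddit4 was the flattest in CD25WT, from 275 CPM in the Izumo1r and Cst7 cluster to 117 CPM in cycling-like cells. In CD25KO it ran from 164 CPM in central-like to 49.4 CPM in recently stimulated-like cells. Ddit4 differed from Tsc22d3 and Txnip in follicular regulatory-like cells, where it was at 241 and 129 CPM while Tsc22d3 was at 66.6 and 33.0 CPM.

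Btg1 and Btg2 had their highest level in the Ttn and Nrp1 cluster of both libraries, at 2038 and 2403 CPM for Btg1 and 294 and 289 CPM for Btg2. Both were lowest in cycling-like cells, at 460 and 320 CPM for Btg1 and 84.7 and 112 CPM for Btg2. Cycling-like cells had the lowest CPM in both libraries for Txnip, Pik3ip1, Btg1 and Btg2, 4 of the 7. They were also the deepest, with medians of 18142 (CD25WT) and 14777 (CD25KO) UMIs, and CPM divides by that total. Btg2 had 104 UMIs in 67 CD25WT and 403 in 217 CD25KO cells of this state, so it was not low per cell. Over all T cells it had 1.15 and 1.13 UMIs per cell. Pik3ip1 was low per cell too, with 27 and 39 UMIs there, against 0.67 and 0.29 per cell over all T cells. Txnip had 116 and 256 UMIs there, against 2.36 and 1.12 per cell over all T cells, so it was low per cell in CD25WT alone. Btg1 had 565 and 1148, against 8.59 and 9.06 per cell over all T cells, and was clearly low per cell in CD25KO alone. Neighbouring states in these orders often had overlapping intervals: Btg2 in follicular regulatory-like cells (287 CPM) could not be set apart from the Ttn and Nrp1 cluster in CD25WT.

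**Figure D2:**
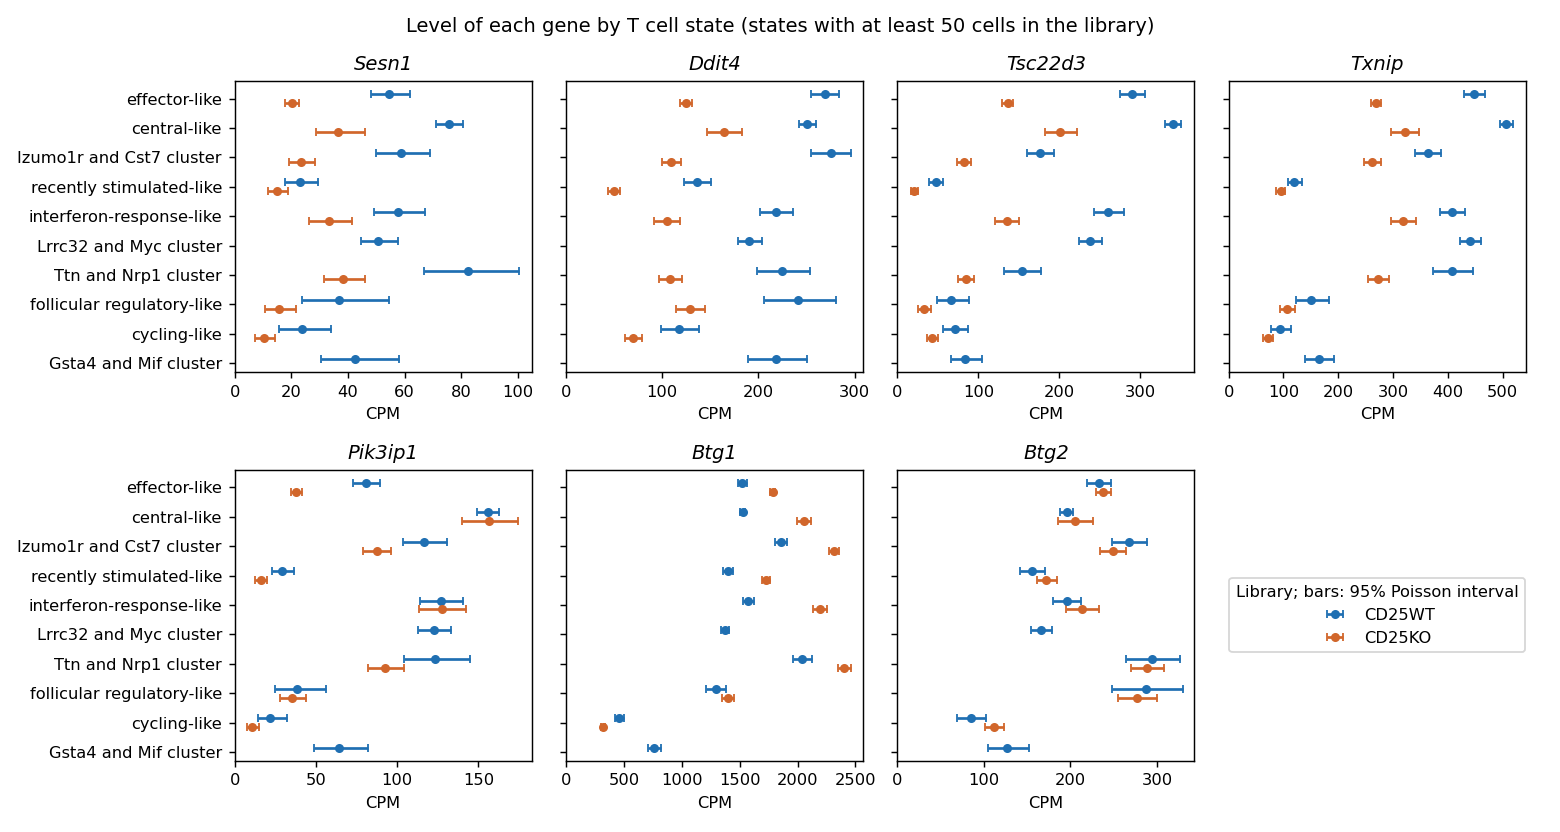
Level of each gene in CPM (horizontal axis, from 0) in each T cell state (vertical axis) for the CD25WT and CD25KO libraries, with 95% Poisson intervals, for states with at least 50 cells in the library. Tsc22d3 reaches 340 CPM in central-like and 47.4 CPM in recently stimulated-like CD25WT cells, and the CD25KO points of Sesn1, Ddit4, Tsc22d3 and Txnip lie left of the CD25WT points in every state drawn for both.

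The mix of states differed between the libraries. Central-like cells were 39.3% of CD25WT and 7.14% of CD25KO T cells. They gave 37.9% of all CD25WT UMIs, but 48.4% of the Sesn1 UMIs and 51.6% of the Tsc22d3 UMIs. The comparison was therefore repeated inside each of the 7 states with at least 100 cells in both libraries.

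Sesn1, Ddit4 and Tsc22d3 were at least 1.5-fold lower in CD25KO in 7 of 7 states. Their log2 ratios ran from -1.44 (effector-like) to -0.64 (recently stimulated-like) for Sesn1, from -1.46 (recently stimulated-like) to -0.61 (central-like) for Ddit4, and from -1.18 (recently stimulated-like) to -0.76 (central-like) for Tsc22d3. All 21 of these intervals lay below 0. The effector-like, central-like and recently stimulated-like states pool clusters that the libraries filled unequally. Over the 9 single clusters with 100 cells in both libraries, Sesn1 was at least 1.5-fold lower in 9, Ddit4 in 8 and Tsc22d3 in 8, with all intervals below 0. The exceptions were Ddit4 in the central-like cluster led by Satb1 and Igfbp4 (-0.57) and Tsc22d3 in the effector-like cluster led by Ccl5, Lilrb4a and Fgl2 (-0.53, against -1.09 for the whole state). Txnip was lower in 7 of 7 states with every interval below 0, but by at least 1.5-fold in 2, effector-like (-0.74) and central-like (-0.66), with the Ttn and Nrp1 cluster just short of that size (-0.58). Inside the Ccl5, Lilrb4a and Fgl2 cluster Txnip was at -0.30, and inside the cluster with 843 of the 873 recently stimulated-like CD25KO cells, led by Cd83 and Cxcl10, it was at -0.19 (-0.41 to 0.04). In effector-like cells 5 of the 7 genes were at least 1.5-fold lower, against 1.71% of all genes there. In central-like cells it was 4 of 7, against 2.0%, and in recently stimulated-like cells 4 of 7, against 1.76%. It was 3 of 7 in the Izumo1r and Cst7 cluster (2.1% of all genes), in interferon-response-like cells (2.2%), in the Ttn and Nrp1 cluster (4.36%) and in follicular regulatory-like cells (9.15%). These counts are for pooled states, and Ddit4, Tsc22d3 and Txnip did not reach 1.5-fold in the single clusters just named. Nor did Pik3ip1 inside the Cd83 and Cxcl10 cluster (-0.38). These within-state values use the cells of the contrast that chose the genes and are descriptions too.

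Pik3ip1 split by state. In central-like cells it was at 156 CPM in both libraries, with a log2 ratio of 0.00 (-0.17 to 0.18), and in interferon-response-like cells at 127 CPM in both, with 0.01 (-0.22 to 0.23). In effector-like cells its level was 80.8 CPM in the CD25WT library and 38.1 CPM in CD25KO, for a log2 ratio of -1.09 (-1.29 to -0.89). The intervals for central-like and effector-like cells did not overlap. In recently stimulated-like cells the ratio was -0.87 (-1.33 to -0.40), but -0.38 (-0.92 to 0.17) inside their Cd83 and Cxcl10 cluster (334 and 843 cells). It was -0.42 (-0.64 to -0.19) in the Izumo1r and Cst7 cluster, -0.41 (-0.71 to -0.12) in the Ttn and Nrp1 cluster and -0.13 (-0.78 to 0.58) in follicular regulatory-like cells.

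The effector-like state was filled by different clusters in the 2 libraries. A cluster led by S100a4, Il18r1 and Rora had 664 CD25WT and 947 CD25KO cells, and one led by Ccl5, Lilrb4a and Fgl2 had 132 and 1200. The Pik3ip1 ratio was -0.91 (-1.16 to -0.67) within the first and -0.87 (-1.41 to -0.29) within the other, so it was of similar size inside each. In the 2 central-like clusters it was -0.01 and 0.05. Btg1 was higher in CD25KO in 7 of 7 states, from 0.11 in follicular regulatory-like to 0.48 in interferon-response-like cells, with 6 intervals above 0. Inside the S100a4, Il18r1 and Rora cluster, however, its ratio was -0.09 (-0.15 to -0.04). Btg2 had intervals that spanned 0 in all 7 states, and was at 0.34 (0.15 to 0.54) inside the Cd83 and Cxcl10 cluster.

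When both libraries were given the CD25WT shares of states, the log2 ratios became -1.12 for Sesn1, -0.83 for Ddit4, -0.84 for Tsc22d3 and -0.60 for Txnip. Pik3ip1 moved to -0.08, Btg1 to 0.38 and Btg2 to 0.03. At this common mix 4 of 7 genes were at least 1.5-fold lower, against 0.878% of 6945 genes, whose median was 0.08, and 0 of 7 were higher by that fold, against 3.3%. Every state entered these values, also the Lrrc32 and Myc cluster, with a weight of 12.8% but 27 CD25KO cells, which had 17 Pik3ip1 UMIs. Pik3ip1 moved most, from 115 and 56.4 CPM to 119 and 112 CPM. With the CD25KO shares as weights in place of the CD25WT shares it was -0.48.

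**Figure D3:**
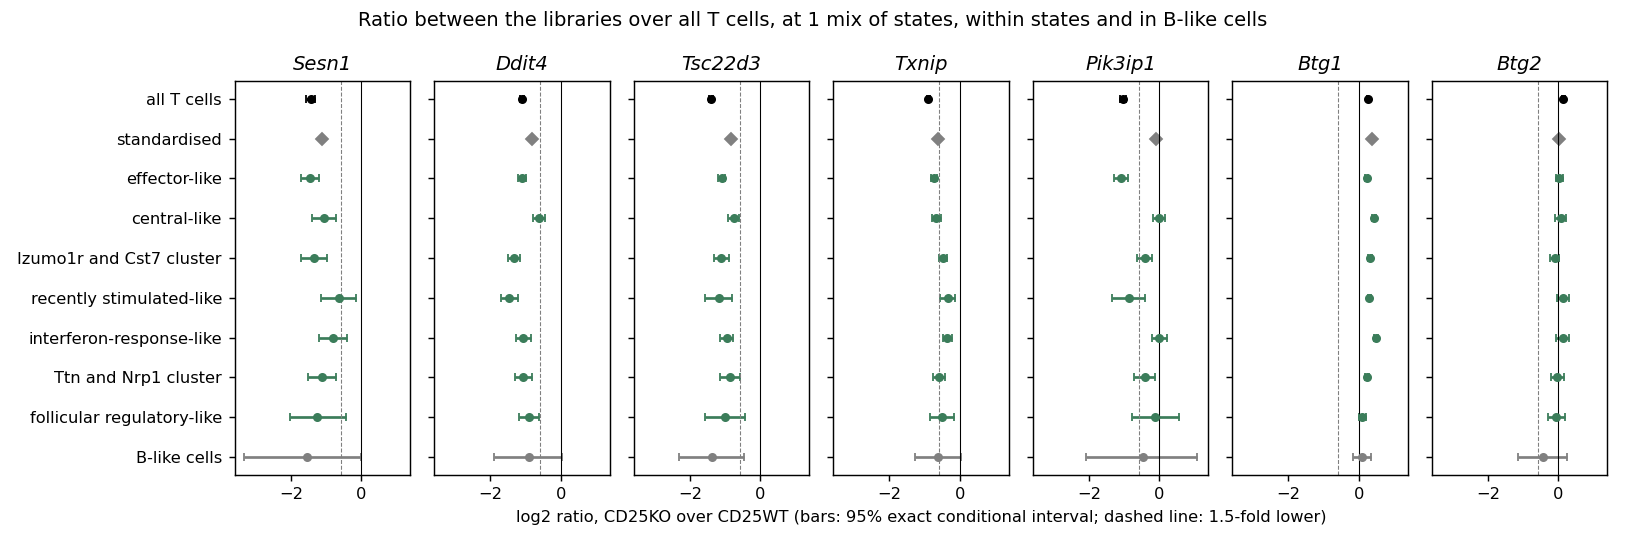
The log2 ratio of CD25KO over CD25WT for each gene (horizontal axis) over all T cells, with both libraries at the CD25WT mix of states (diamond, no interval), within 7 states and in B-like cells, with 95% exact conditional intervals. Sesn1, Ddit4 and Tsc22d3 lie left of the dashed line at 1.5-fold lower in all 7 T cell states. Pik3ip1 runs from -1.09 in effector-like to 0.00 in central-like and 0.01 in interferon-response-like cells.

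Depth moved with these ratios. With the cells of each library ranked by UMIs and cut into 3 equal groups, the Txnip ratio was -0.57 in the shallowest, -0.78 in the middle and -1.09 in the deepest group, and the Tsc22d3 ratio -1.09, -1.25 and -1.57. Ddit4 ran the other way, at -1.39, -1.18 and -0.92. Pik3ip1 was at -0.74, -0.66 and -1.41, and Sesn1 at -1.23, -1.21 and -1.63. The 5 genes were thus below 0 in all 3 groups. Btg1 was at 0.48, 0.53 and -0.01, so its higher level in CD25KO was not seen among the deepest cells. The depth groups also hold different states, and the part of each was not tested.

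The sort left a few B-like cells, 60 in CD25WT and 61 in CD25KO (medians of 2914 and 3215 UMIs), which the Foxp3-driven Cre would not be expected to recombine. Looking at them was decided after the data were seen. Tsc22d3 had 40 UMIs in the CD25WT and 15 in the CD25KO B-like cells (176 and 68.6 CPM), a log2 ratio of -1.36 (-2.32 to -0.47). Sesn1 had 15 and 5 UMIs, at -1.53 (-3.34 to 0.01), and Ddit4 had 29 and 15, at -0.89 (-1.90 to 0.05). Txnip had 54 and 34 UMIs, at -0.61 (-1.27 to 0.04), and Btg1 259 and 267, at 0.10 (-0.15 to 0.35). Pik3ip1 had 10 and 7 UMIs, at -0.46 (-2.09 to 1.08), and Btg2 45 and 32, at -0.43 (-1.13 to 0.25). Of the 7 intervals, that of Tsc22d3 lay clear of 0, and the Btg2 value was on the other side of 0 from its value in T cells. With so few UMIs, 36.9% of all genes were at least 1.5-fold lower in these cells, and among the 1166 genes that averaged 100 CPM or more it was 14.4%, with a median of -0.04. RNA of T cells was present in them: the sum of Cd3e, Cd3d and Trac was 514 and 773 CPM, against 2343 and 3014 CPM in T cells. That RNA and a difference between the whole libraries cannot be told apart in these ratios. A further 25 and 25 cells fell in a cluster led by Apoe, C1qa and Hmox1, where Tsc22d3 had 18 and 6 UMIs (-1.82, -3.44 to -0.43), Ddit4 24 and 11 (-1.36, -2.54 to -0.28) and Sesn1 7 and 3 (-1.46, -4.04 to 0.67). Txnip was at -0.51, Pik3ip1 at -1.56, Btg1 at 0.18 and Btg2 at 0.80 there, each with an interval that spanned 0. The T cell receptor sum in these cells was 2963 and 2721 CPM, about that of the T cells.

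Among the T cells themselves, B cell markers summed to 270 CPM in CD25WT and 532 CPM in CD25KO (3 of 10 genes at 5 CPM or more in each, 1 at 0), of which Cd79a, Cd79b and Ms4a1 gave 14.2 and 21.3 CPM, against 1853 and 1723 CPM in the B-like cells. Erythroid markers summed to 213 and 122 CPM, myeloid markers to 106 and 144 CPM (3 of 9 at 0), CD8 T cell markers to 15.3 and 25.9 CPM, plasma cell markers to 44.0 and 56.8 CPM, natural killer cell markers to 7.12 and 8.18 CPM and platelet markers to 1.98 and 4.03 CPM. The part of these in the 7 genes' ratios was not tested. With the 107 shared barcodes left out, the ratios of Sesn1, Ddit4 and Tsc22d3 were -1.42, -1.09 and -1.37.

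Inside the CD25WT library, cells with and without an Il2ra UMI could be compared within the same sort and the same library. At 2000 UMIs per cell, 1061 cells had an Il2ra UMI and 4877 had none. Cells without a UMI can still express the gene. Tsc22d3 was at 258 CPM in cells with and 268 CPM in cells without, and Txnip at 445 and 440 CPM. Sesn1 was at 66.5 and 59.4 CPM and Pik3ip1 at 113 and 121 CPM, and for all 4 genes the interval of the log2 ratio spanned 0. Ddit4 was lower in cells with Il2ra, at 194 against 247 CPM (-0.35, -0.51 to -0.20), and so was Btg2, at 185 against 218 CPM (-0.24, -0.40 to -0.08). Btg1 was at 1571 and 1635 CPM (-0.06, -0.11 to -0.0041).

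None of the 7 genes was 1.5-fold lower or higher by this split, against 2.81% of 6827 genes lower and 1.82% higher. On this scale, a gene with less RNA in cells without an Il2ra UMI has a ratio above 0. The intervals were -0.19 to 0.08 for Tsc22d3, -0.30 to 0.11 for Pik3ip1, -0.09 to 0.12 for Txnip and -0.11 to 0.43 for Sesn1. The split does not measure the loss of CD25, since cells without a UMI are a mixture. The direction for Ddit4 was opposite to that between the libraries, where the cells with less Il2ra had less Ddit4. Cells with an Il2ra UMI fell in other states: 29.9% were in the Lrrc32 and Myc cluster, against 9.21% of cells without. Among central-like cells alone (362 with, 1978 without), the interval spanned 0 for all 7 genes. When the CD25WT cells with no Il2ra UMI (3892 cells, not thinned) were set against all CD25KO cells, the ratios were -1.31 for Sesn1, -1.24 for Ddit4 and -1.43 for Tsc22d3.

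**Figure D4:**
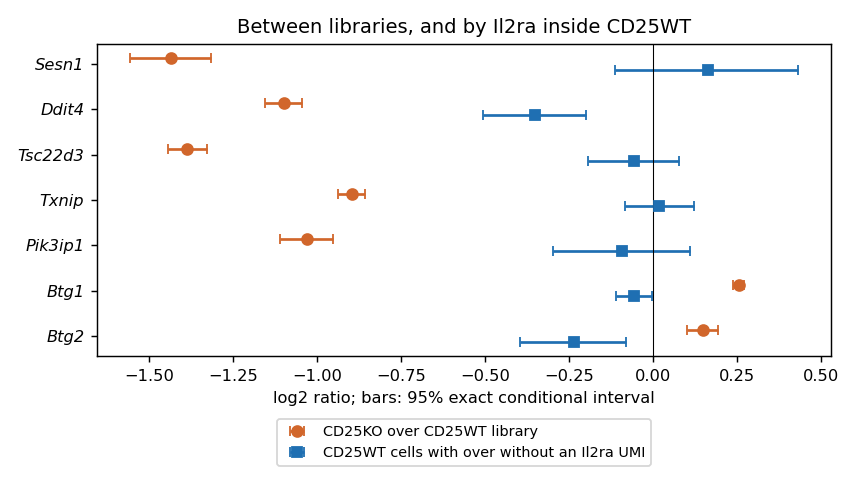
The log2 ratio of each gene between the libraries (circles, CD25KO over CD25WT) and inside the CD25WT library between cells with and without an Il2ra UMI at 2000 UMIs per cell (squares), with 95% exact conditional intervals. A gene with less RNA where Il2ra is lower lies left of 0 as a circle and right of 0 as a square. The squares lie between -0.35 (Ddit4) and 0.16 (Sesn1), while 5 of the circles lie at -0.90 or below.

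The other genes of the members' pathways were described as 9 lists, with medians from 0.10 to 0.38. The background for these lists is the 8732 genes that averaged 5 CPM or more. By 1.5-fold, 1.9% of them were lower and 12.2% higher, and their median was 0.21. At the CD25WT mix of states their median was 0.08. By 1.5-fold at that mix, 0.878% of the 6945 genes that averaged 10 CPM or more were lower and 3.3% higher. Of 21 measured FOXO factors and target genes, 5 were lower, among them the homing receptor Ccr7 (138 and 63.1 CPM, log2 ratio -1.13), the egress receptor S1pr1 (-0.65), the T cell factor Lef1 (-0.71) and the pro-apoptotic Bcl2l11 (-0.63). Cited2 (0.86) and Bcl6 (0.80) were higher, and the median of the list was 0.17. At the CD25WT mix of states, 0 of the 21 were 1.5-fold lower or higher, and 5 genes of the list are also markers used to name the states.

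Of 10 measured glucocorticoid receptor and target genes besides Tsc22d3, 0 were lower and 3 higher. Fkbp5, the co-chaperone that glucocorticoids induce, stood at 63.2 CPM in the CD25WT library and 131 CPM in CD25KO (log2 ratio 1.05), opposite to Tsc22d3. Sgk1, a kinase of the same response, was at 9.68 and 16.5 CPM (0.77), and the decoy receptor Il1r2 at 10.3 and 62.9 CPM (2.60). Klf9, another target, was at 19.0 and 12.7 CPM (-0.58), and the list's median was 0.18. At the CD25WT mix of states Fkbp5 stood at 0.43, the list's median was 0.30, and 2 genes were at least 1.5-fold higher, Il1r2 (1.65) and Tgfbr3 (0.87). Tgfbr3 was a low gene that did not differ over all T cells, at 8.99 and 8.98 CPM (-0.0017, -0.23 to 0.23). Its value at the common mix has no interval and includes states with few CD25KO cells. Per1 (-0.49), Klf9 (-0.48), Dusp1 (-0.42) and Cxcr4 (-0.37) were below 0 at that mix, though 0 were 1.5-fold lower. The rest of the list was above 0 at that mix. Over all T cells Per1 (0.03), Dusp1 (0.02) and Cxcr4 (-0.0094) had intervals that spanned 0. Dusp1 is also in the list of immediate early and dissociation stress genes. Il1r2 is also 1 of the markers used to name the states.

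Of 22 measured mTORC1 components and regulators, 0 were 1.5-fold lower or higher, and their median was 0.16, so transcripts of the complex that Sesn1 and Ddit4 inhibit did not differ by that size. Of 13 PI3K, phosphatase and AKT genes, the regulatory subunits Pik3r1 (137 and 86.3 CPM, -0.66) and Pik3r5 (-0.68) were lower, the phosphatase Phlpp1 (1.07), Akt1 (0.81) and Pik3cg (0.63) were higher, and the median was 0.10. Of 11 genes around Txnip (alpha-arrestins, thioredoxins and MondoA partners), Txn1, the thioredoxin that Txnip binds, was at 203 and 342 CPM (0.75), Arrdc4 was higher as well (0.71), and none was lower. The 16 measured BTG, TOB and CCR4-NOT genes had a median of 0.19, with Btg3 (16.7 and 33.4 CPM, 0.999) and Cnot6l (0.65) higher and none lower. The 5 relatives and partners of Tsc22d3 lay between -0.16 (Tsc22d1) and 0.29 (Nrbp1).

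Sesn1 and Btg2 are known p53 targets. Of 11 measured genes of a p53 list, 0 were lower and 1, Pmaip1, was higher (1.42), with a median of 0.38. Immediate early and dissociation stress genes can record handling of cells, but 2 of this list, Egr1 and Nr4a1, are also markers of recently stimulated-like cells. Of 12 measured, Jun was lower (44.5 and 13.4 CPM, -1.73) and Junb (0.68) and Egr1 (0.80) were higher. Their summed levels were 1130 and 1362 CPM. At the CD25WT mix of states, 3 were lower, Fosb (-1.14), Jun (-1.05) and Fos (-0.60), and 0 were higher. Over all T cells Fos was at 0.18 (-0.04 to 0.39) and Fosb at 6.95 and 5.68 CPM. The recently stimulated-like state (404 and 873 cells) pools a cluster with Fos among its leading genes, which had 70 CD25WT and 30 CD25KO cells. The common mix does not even out clusters inside a state. The part of handling in the 7 genes' ratios was not tested.

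Across 18 profiles of a state in a library, which share libraries and depth, Txnip and Pik3ip1 had a Pearson correlation of log2 levels of 0.92, Tsc22d3 and Txnip 0.92, and Btg1 and Btg2 0.81. Ddit4 and Btg1 had 0.19. The profiles of both libraries enter these values, so the difference between libraries by which the genes were chosen adds to them. Over single cells at 2000 UMIs the 21 pairs were weakly correlated, with a median of 0.035 and a highest value of 0.135 in CD25WT (5938 cells), and 0.02 and 0.133 in CD25KO (6500 cells). Of 4967 other genes, those most like the mean profile of the 7 were Pdcd4 (0.91), a translation inhibitor, Etfbkmt (0.90), Zfp1 (0.90), Zfp36l2 (0.89), an RNA-binding protein that promotes quiescence in lymphocytes, E230001N04Rik (0.88) and Trpc4ap (0.88). Pdcd4 stood at 706 CPM in the CD25WT library and 492 CPM in CD25KO, and Zfp36l2 at 428 and 272 CPM (log2 ratio -0.65, and -0.67 at the CD25WT mix of states). The 2 genes most like each member were Coro2a and Stambpl1 for Sesn1, Fam117a and Zfp36l2 for Ddit4, Otulinl and Grap2 for Tsc22d3, Resf1 and Etfbkmt for Txnip, Chd3 and Tbxa2r for Pik3ip1, Pnrc1 and Clec2d for Btg1, and Zfp260 and Relch for Btg2. Their correlations ran from 0.79 (Zfp36l2 with Ddit4) to 0.97 (Pnrc1 with Btg1).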

How the data were processed

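The deposited matrices hold raw UMI counts per gene and barcode from 10x Chromium 3' libraries, which the authors made, per the file headers, using Cell Ranger 6.0.0, on mm10 per the submitters' processing notes. No source used here gives the annotation or strand setting used for counting. Barcodes numbered 6620 (CD25WT) and 7530 (CD25KO), and those with 500 or more detected genes and no more than 10% of UMIs from mitochondrial genes were kept (6110 and 6952). Scrublet called 1 and 0 doublets, which was taken as a failure of the caller, so doublets remain.

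Both libraries were clustered together (Scanpy 1.11.5, leidenalg 0.10.2; log counts per 10000, 2000 variable genes, 30 components, 15 neighbours, resolution 1). The features excluded the 7 genes, Il2ra, antigen receptor segments, haemoglobin, mitochondrial and ribosomal protein genes, Y-linked genes and Xist. A state was named where its markers averaged a log2 fold of at least 0.25 and either led the cluster or gave 4 of its 20 leading genes. This naming rule was set after seeing the clusters. Clusters of other lineages (113 and 103 cells) were left out. B-like cells come from a clustering at resolution 1.5.

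UMIs were summed per library and state and divided by the total (CPM). Sums have exact Poisson intervals and ratios exact conditional intervals, at 95%. Ratios within T cell states and single clusters needed 100 cells in both libraries, levels 50. Ratios in B-like cells and in the Apoe, C1qa and Hmox1 cluster were given with fewer. Values at a common mix used every state with cells in both libraries. Likeness is Pearson's r of log2(CPM + 1) over states with 50 cells, for genes that averaged 20 CPM or more. The ratio step was tested on simulated data. Up to 4 genes per list were named by the size of their ratio; list genes named beyond these were picked once their values had been seen, and 1 gene that the rule takes is not reported here. The 7 genes, the lists and the alternatives were chosen with earlier results of these data known. Alternatives were other scalings (TMM from edgeR 4.0.16, median of ratios, and a total that omits ribosomal protein and mitochondrial genes), cells weighed equally, thinning, cell filters and subsets, removal of the highest doublet scores, other clusterings and weights, and other Il2ra splits; leaving out shared barcodes and pooling unnamed clusters were added after seeing the data.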

Additional observations from a re-analysis of the deposited data

How the results depend on the processing

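Over all T cells, 5 of the 7 genes were at least 1.5-fold lower in CD25KO under all alternatives at that fold, and 4 at 2-fold. At a common mix of states the count was 3 or 4. Txnip fell short of 1.5-fold at resolution 0.5 (-0.57), with 15 (-0.53) or 50 (-0.53) components, with the 7 genes among the clustering features (-0.57) and with single clusters as classes (-0.58). By Il2ra inside CD25WT the count was 0 throughout. Btg2 between the libraries changed sign with TMM factors (-0.0871), with median-of-ratios factors (-0.0846) and without ribosomal protein and mitochondrial genes (-0.0494, and -0.0296 at the CD25WT mix of states). Over all T cells these alternatives shift every gene by the same amount. By Il2ra, Txnip (-0.0046) and Pik3ip1 (0.0897) changed sign without thinning, Sesn1 at 1000 UMIs (-0.26), Sesn1 (-0.0044), Txnip (-0.0589) and Btg1 (0.021) in central-like cells alone, and Txnip (-0.0185) and Pik3ip1 (0.0283) with at least 2 Il2ra UMIs. The cause was not tested for these Il2ra values. Of the values for single genes, 95 moved by less than a counting interval and 75 by more with the same sign. Ratios at a common mix of states have no interval of their own, so for them this sorting is only a rough guide. The count of all genes at least 1.5-fold lower was 105, against 250 with TMM factors, 247 with median-of-ratios factors, 220 without ribosomal protein and mitochondrial genes and 166 in cells with a Foxp3 UMI (964 and 686 cells).

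No paired analysis was possible because each group is 1 library, so there is no replicate to leave out. Depth limits Sesn1, with 34 or fewer UMIs in follicular regulatory-like cells of either library.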
